A study of Mus musculus with 6 samples.

Results

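*Rab6b*, *Rab12*, *Kif21a*, *Ktn1* and *Fsd1l* are 5 genes whose products act in vesicle traffic or on microtubules or, for *Fsd1l*, are related to a microtubule-associated protein. They were chosen by name among the 398 genes of the deposited expression table, in which each gene had already been selected on its difference between QKI-cKO and QKI-ctrl muscle stem cells (MuSCs). The group values below are therefore a description, and no test was made on them. QKI-cKO mice carried *Qk* alleles with loxP sites around exon 2 on both chromosomes together with 1 Pax7-CreERT2 allele (QKI 2lox/2lox; Pax7 CreERT2/+). QKI-ctrl littermates carried the same floxed alleles with no Cre allele (QKI 2lox/2lox; Pax7 +/+), so that loss of QKI and presence of Cre cannot be told apart. Both groups had a C57BL/6 background, held males and females, and received 5 daily injections of 4-hydroxytamoxifen. MuSCs of QKI-cKO and QKI-ctrl mice aged 6 to 8 wk, in 3 biological replicates per group, were sorted by surface markers, among them Itga7, from abdominal and diaphragm muscle and cultured in growth medium for 72 h before their polyadenylated RNA was sequenced.

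For each gene the table holds 1 FPKM value for QKI-cKO and 1 for QKI-ctrl, which the authors pooled over the 3 replicates. FPKM scales the fragments of a gene by its transcript length and by the size of the library, and it allows levels of genes of different length to be set side by side. The column names do not give the genotype, and neither do the sources used here. The second column was taken as QKI-cKO because the contractile genes that the study describes as lower in QKI-cKO are lower in it, and every direction below rests on this assignment. No value per replicate was analysed here, so that no spread between replicates could be set beside a difference, and the depth of the libraries is unknown. The targeted gene *Qk* was at 262 FPKM in QKI-cKO and 128 FPKM in QKI-ctrl. This value counts the whole gene and is no check of the deletion of exon 2. Of 9 markers of MuSCs and myoblasts, 2 were in the table, *Itga7* (145 FPKM in QKI-cKO, 237 FPKM in QKI-ctrl) and *Vcam1* (44.9 FPKM in QKI-cKO, 67.1 FPKM in QKI-ctrl). Of 4 Schwann cell markers the table held 1, *Ngfr* (10.2 FPKM in QKI-cKO, 5.53 FPKM in QKI-ctrl), and endothelial, leukocyte, fibro-adipogenic and smooth muscle markers had 0. A gene outside the table has no value here, so the identity of the cells was checked only in part, and the part that other cells had in the results was not tested. In such bulk RNA, fewer cells of a type and less RNA per cell cannot be told apart.

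Rab proteins are small GTPases that mark the membranes of vesicles and organelles and recruit tethers, adaptors and motors to them in their GTP-bound state. Kinesins and dynein carry such cargo along microtubules, and SNARE proteins fuse the vesicle with its target. Surface receptors, integrins and other polarized proteins of a cell depend on this traffic. Quaking (QKI) is an RNA-binding protein that acts on splicing and on other steps of RNA metabolism. It recognizes the QKI response element (QRE), made of the core sequence ACUAAC or ACUAAU and, a short distance after it, UAAC or UAAU.

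Of the 5 genes, *Rab6b*, *Rab12* and *Ktn1* were lower in QKI-cKO and *Kif21a* and *Fsd1l* were higher. In the whole table, 42.7% of genes were lower and 57.3% were higher in QKI-cKO. Past a 2-fold ratio were *Rab6b* among the lower genes and *Fsd1l* among the higher ones, beside 10.8% of the table lower and 8.54% higher past the same limit. *Rab12* and *Kif21a* stayed just under the limit, with ratios of 1.98-fold lower and 1.91-fold higher. Since the table itself chose the genes, these shares are given as background only.

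**Figure D1:**
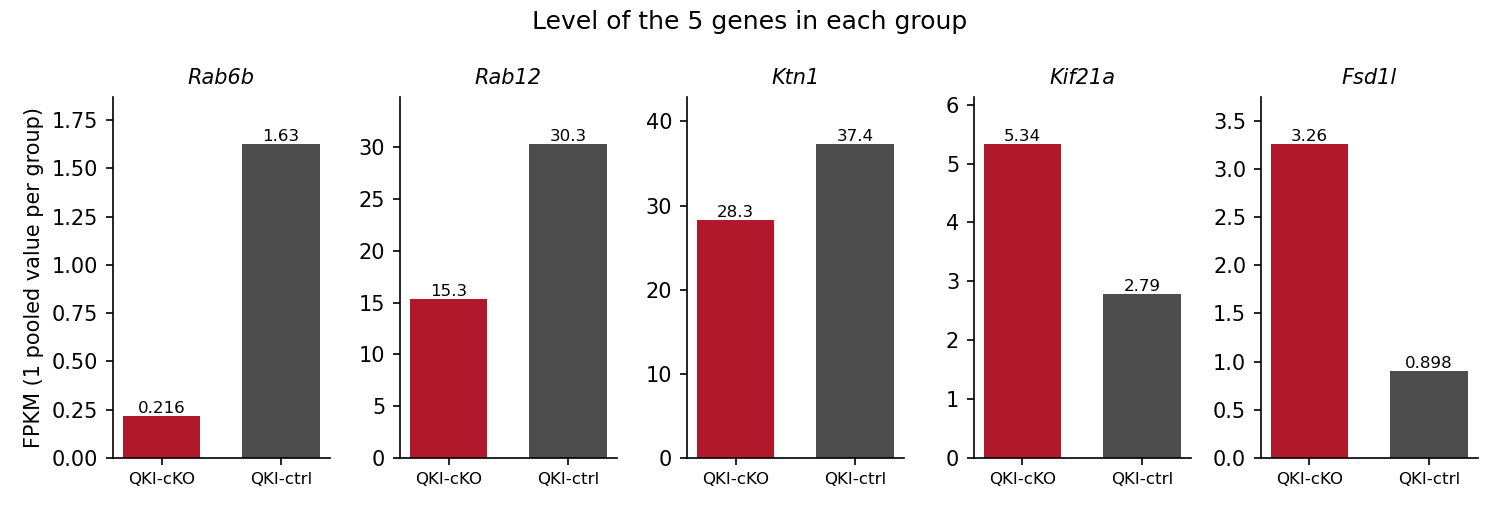
Bars give the FPKM value of *Rab6b*, *Rab12*, *Ktn1*, *Kif21a* and *Fsd1l* in QKI-cKO (red, left) and QKI-ctrl (grey, right), 1 pooled value per group and hence without error bars, with a separate axis from 0 for each gene. The first 3 genes are lower in QKI-cKO, with *Rab6b* at 0.216 beside 1.63 FPKM, and the other 2 are higher.

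The Rab GTPases were both lower in QKI-cKO and differed widely in level. *Rab6b* (ENSMUSG00000032549.7) encodes the Rab6 form that is best known from neurons, where it acts in transport between the Golgi apparatus and the endoplasmic reticulum. It lies on chromosome 9 of GRCm38 from 103111787 to 103185276, on the plus strand. It was at 0.216 FPKM in QKI-cKO and 1.63 FPKM in QKI-ctrl, a log2 ratio of -2.92, or 7.55-fold lower. With 1 FPKM added to both values the log2 ratio of *Rab6b* was -1.11, no longer the largest of the 5 in size. Without this addition, among all genes that were lower in QKI-cKO this was the 9th largest ratio. Its value ranked 382 of the 398 genes in QKI-cKO and 301 in QKI-ctrl. The ratio thus rests on a QKI-cKO value near the low end of the table and a QKI-ctrl value somewhat above it. In the table, 77 genes were below 1 FPKM in QKI-cKO and 77 in QKI-ctrl. No skipped exon event is listed by the study for this gene. Of the 4958 distinct stretches of 50 nucleotides in its longest transcript, 0 occur in a transcript of another gene in the same orientation, the closely related *Rab6a* included. The annotated gene Gm37166 lies on the same strand within *Rab6b* and shares 0 exonic bases with it.

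*Rab12* (ENSMUSG00000023460.13) encodes a GTPase of recycling endosomes and lysosomes, known for sending the transferrin receptor to degradation and for a role in autophagy. It lies on chromosome 17 from 66494512 to 66519729, on the minus strand, 56.2 Mb from the targeted gene *Qk* on the same chromosome. *Rab12* was at 15.3 FPKM in QKI-cKO and 30.3 FPKM in QKI-ctrl, a log2 ratio of -0.99. On the linear scale its difference of -15.0 FPKM was the largest of the 5 genes, while its ratio was only the 44th largest among the lower genes. It ranked 121 of 398 in QKI-cKO and 73 in QKI-ctrl, well above *Rab6b*.

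The study lists a skipped exon event in *Rab12* among those it called significant between QKI-cKO and QKI-ctrl. The gene level above can be set beside the exon concerned. The exon is 190 nucleotides long and lies on chromosome 17 from 66504989 to 66505178. In the GENCODE annotation it occurs in 1 of 5 *Rab12* transcripts, a processed transcript with no reading frame, and 2 coding transcripts join its neighbours without it. Its length leaves a remainder of 1 on division by 3. It is shown here for what it would add to the coding transcript, with the first stop codon in the frame of *Rab12-201* in capitals.
*Rab12* exon: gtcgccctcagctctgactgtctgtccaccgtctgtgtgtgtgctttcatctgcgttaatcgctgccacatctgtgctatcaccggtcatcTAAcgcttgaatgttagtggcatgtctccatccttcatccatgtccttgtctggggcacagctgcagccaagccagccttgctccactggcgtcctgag

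Placed into *Rab12-201*, the exon follows 428 coding bases. The stop codon begins at base 92 of the exon, so that the reading frame would hold 173 codons before its stop, against 291 codons without the exon. This stop lies 433 nucleotides before the last exon junction. These lengths are computed from the annotation, and no protein was measured in these files. FPKM counts fragments of all *Rab12* transcripts together, and the part of either form in the gene level was not tested.

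The microtubule motor and the motor-binding protein differed in direction. *Kif21a* (ENSMUSG00000022629.17) encodes a kinesin of the kinesin-4 family, which restrains microtubule growth at the cell cortex and is the gene mutated in human congenital fibrosis of the extraocular muscles. It lies on chromosome 15 from 90933276 to 91049948, on the minus strand. *Kif21a* was at 5.34 FPKM in QKI-cKO and 2.79 FPKM in QKI-ctrl, a log2 ratio of 0.93. It ranked 215 of 398 in QKI-cKO and 263 in QKI-ctrl, near and below the middle of the table, whose median was 6.17 FPKM in QKI-cKO and 6.29 FPKM in QKI-ctrl. Among the genes that were higher in QKI-cKO its ratio was the 42nd largest.

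The skipped exon event listed for *Kif21a* concerns an exon of 21 nucleotides on chromosome 15 from 90964975 to 90964995. It is exon 24 of the 37 exons of *Kif21a-202*. All 3 of the 7 annotated transcripts that hold it use it as coding sequence, and 2 coding transcripts join its neighbours directly. Such very short exons are called microexons. The exon is shown in capitals between the last and first 15 nucleotides of its neighbours, since its whole sequence is the difference between the isoforms.
*Kif21a* exon: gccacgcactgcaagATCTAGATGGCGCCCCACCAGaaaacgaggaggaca

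The *Kif21a* exon begins within a codon, after 3325 coding bases. The letters TAG in it are therefore not read as a stop, and its removal leaves the frame open. Without it *Kif21a-202* would hold 1665 codons against 1672 with it, a difference of 7 codons.

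*Ktn1* (ENSMUSG00000021843.17) encodes kinectin, a membrane protein of the endoplasmic reticulum with a long coiled coil that binds kinesin. It lies on chromosome 14 from 47648448 to 47739894, on the plus strand. *Ktn1* was at 28.3 FPKM in QKI-cKO and 37.4 FPKM in QKI-ctrl, a log2 ratio of -0.40. It was the most abundant of the 5 genes in both groups, ranked 81 of 398 in QKI-cKO and 65 in QKI-ctrl. Its ratio of 1.32-fold lower was the smallest of the 5 and the 142nd largest among the 170 lower genes. Kinectin and the kinesin *Kif21a* thus had opposite signs, with the smaller relative difference in the more abundant gene.

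The event listed for *Ktn1* concerns an exon of 84 nucleotides on chromosome 14 from 47726471 to 47726554, exon 39 of the 43 exons of *Ktn1-210*. It is coding in all 7 of 26 annotated transcripts that hold it, while 13 transcripts, 12 of them coding, join its neighbours without it. Both neighbours are also 84 nucleotides long, and these 3 are the only exons of that length in *Ktn1-210*. The exon is given in capitals between 15 nucleotides of each neighbour, to show the segment by which the kinectin isoforms differ.
*Ktn1* exon: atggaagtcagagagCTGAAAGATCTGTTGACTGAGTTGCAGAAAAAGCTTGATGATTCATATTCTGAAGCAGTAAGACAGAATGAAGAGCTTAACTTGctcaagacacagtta

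The *Ktn1* exon starts and ends between codons. Its removal takes 28 codons out of *Ktn1-210*, leaving 1299 codons against 1327, and keeps the frame.

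*Fsd1l* (ENSMUSG00000054752.16) encodes a protein with fibronectin type III and SPRY domains that is related to the microtubule-associated protein FSD1. It lies on chromosome 4 from 53631471 to 53707009, on the plus strand, 86.0 Mb from *Pax7*, the gene that carries the Cre allele. *Fsd1l* was at 3.26 FPKM in QKI-cKO and 0.898 FPKM in QKI-ctrl, a log2 ratio of 1.86, or 3.63-fold higher. With 1 FPKM added to both values it was 1.17. The ratio without this addition was the 9th largest ratio among the higher genes. It ranked 264 of 398 in QKI-cKO and 326 in QKI-ctrl, where it was the least abundant of the 5 genes.

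The event listed for *Fsd1l* concerns an exon of 23 nucleotides on chromosome 4 from 53655741 to 53655763, exon 5 of the 13 exons of *Fsd1l-203*. The annotation holds it in 5 of 7 transcripts and uses it as coding sequence in 4, and 0 transcripts join its neighbours without it. It is shown in capitals between 15 nucleotides of each neighbour, since its loss changes the frame.
*Fsd1l* exon: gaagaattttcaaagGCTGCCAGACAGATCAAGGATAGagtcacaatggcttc

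With the *Fsd1l* exon the frame of *Fsd1l-203* holds 497 codons. Without it a stop would follow after 131 codons, 955 nucleotides before the last exon junction. Among the 4 exons, those of *Kif21a* and *Ktn1* are divisible by 3 and change the protein by 7 and 28 codons, while those of *Rab12* and *Fsd1l* are not, and the form with the *Rab12* exon and the form without the *Fsd1l* exon would end early. The study lists all 4 events among those with a significant difference between QKI-cKO and QKI-ctrl. The direction and size of these differences were not read here, so that the gene levels cannot be related to the reading frame. The sequences come from the GENCODE transcripts on GRCm38. Processed pseudogenes lie within *Kif21a* (Gm49545, on the opposite strand) and *Fsd1l* (Gm12470, on the same strand) and share 0 exonic bases with them. Of the stretches of 50 nucleotides in the longest transcript, other genes share 12 of 7896 in *Ktn1* and 5 of 7418 in *Fsd1l*. They share 0 of 6390 in *Kif21a* and 0 of 2020 in *Rab12*. Only exact matches to annotated transcripts were counted, and whether fragments of other genes enter these values was not tested.

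**Figure D2:**
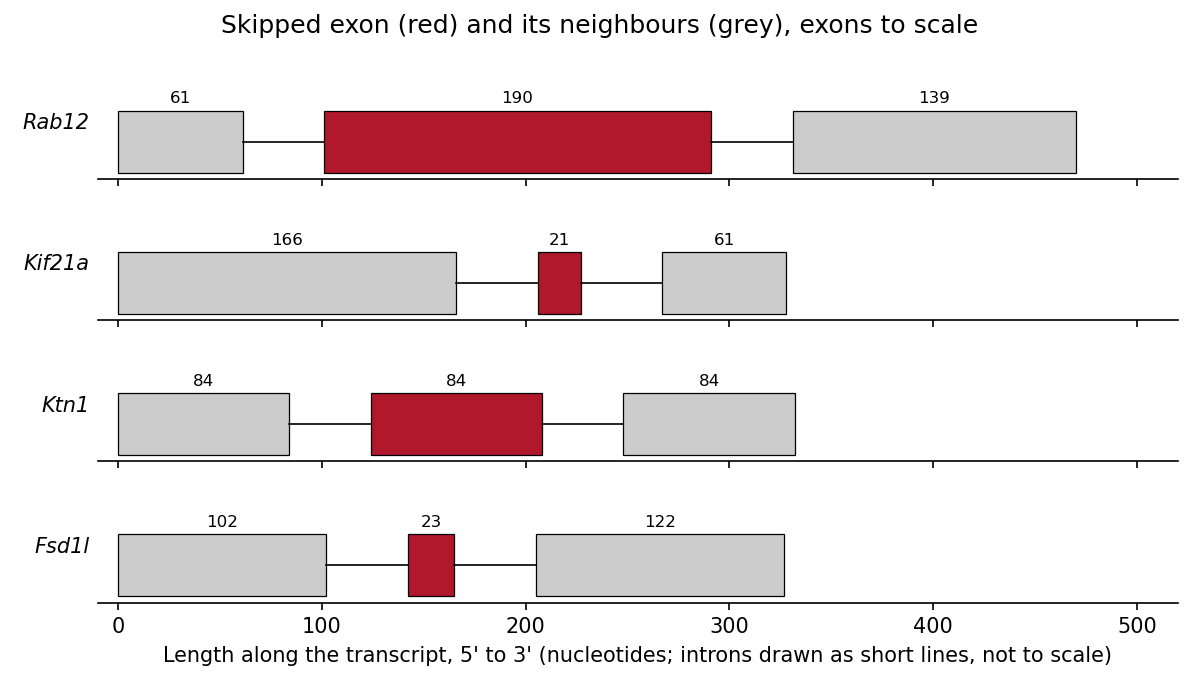
Boxes show the skipped exon listed for *Rab12*, *Kif21a*, *Ktn1* and *Fsd1l* (red) and the exons before and after it in the coding transcript (grey), with lengths in nucleotides above each box and exons drawn to scale along the x axis, while introns are not to scale. The exons of 21 and 23 nucleotides in *Kif21a* and *Fsd1l* stand out as short, and the 3 *Ktn1* exons are of equal length.

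The QRE core was searched in the sequences at hand, on the transcript strand, without the second part of the element. The letters ACTAAC or ACTAAT occur 0 times in each of the 4 skipped exons. These are only 21 to 190 nucleotides long and no share over other exons was computed, so little can be read from this. In the last 1000 nucleotides of the longest coding transcript, *Rab12* holds 1 match and the other 4 genes hold 0. For comparison, 25.4% of the 19349 coding genes with a transcript of at least that length hold 1 or more in the same window. In the last 2000 nucleotides, *Rab12* and *Fsd1l* hold 2 matches each and *Rab6b* holds 1. Of 14197 coding genes, 41.1% hold at least 1 match in that window and 12.7% hold 2 or more. For *Rab12* the window covers nearly the whole transcript of 2069 nucleotides. A match is no binding site, and the introns beside the exons, where the study looked for QREs, were not searched here.

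**Figure D3:**
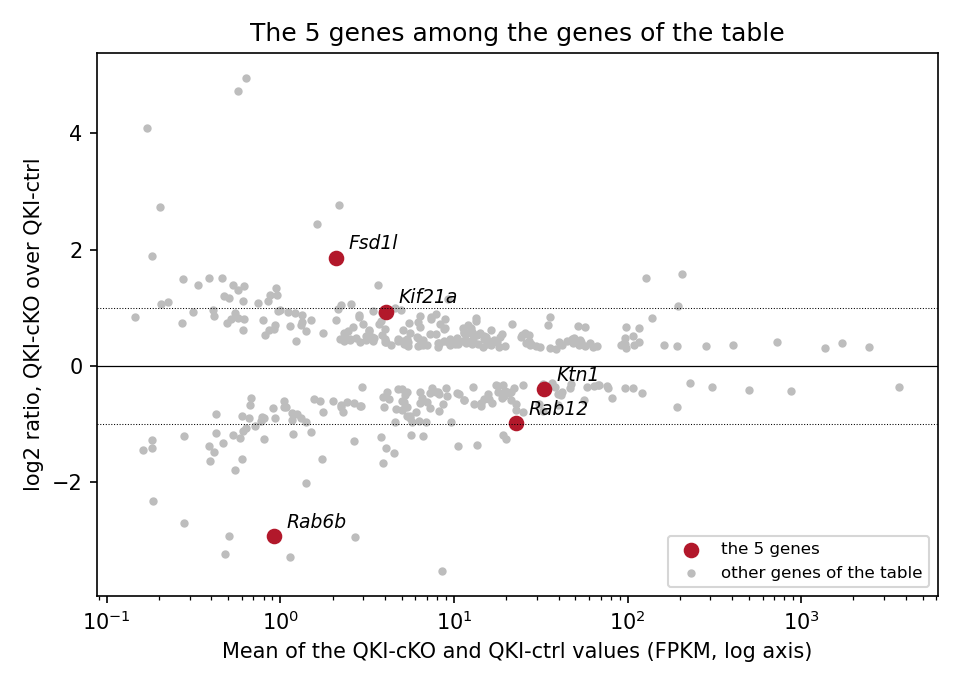
Each point is 1 gene of the table, with the mean of the 2 group values in FPKM on a log x axis and the log2 ratio of QKI-cKO over QKI-ctrl on the y axis. The 4 genes listed at 0 FPKM in 1 group are left out, and dotted lines mark 2-fold. *Fsd1l* (1.86) and *Rab6b* (-2.92) lie beyond the dotted lines, and *Rab12* and *Ktn1* lie farther to the right, at higher levels.

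Other genes of the pathway were read from 9 lists of trafficking and motor genes with 525 annotated coding genes, written with the table already known. Of these, 15 were in the table, 6 higher and 9 lower in QKI-cKO, beside 57.3% higher and 42.7% lower in the whole table. Their median log2 ratio was -0.40, and it was 0.37 over the 394 genes of the table with a value above 0 in both groups. No gene of the table has a log2 ratio between -0.29 and 0.29. Each median therefore shows mainly which sign holds more genes, and no shift of the lists can be read from them. Without the 5 genes described above, 4 were higher and 6 lower, with a median of -0.42 and a range from -0.96 to 0.65. The lists do not hold every trafficking gene of the table. Named after their values were seen, *Necap2*, which acts with clathrin coats, was at 11.7 FPKM in QKI-cKO and 28.0 FPKM in QKI-ctrl (log2 ratio -1.25), and *Sv2a*, a synaptic vesicle protein, was at 0.776 FPKM in QKI-cKO and 0.296 FPKM in QKI-ctrl (1.39), both outside that range. The other 510 listed genes have no value here, so it is unknown how they were expressed, and no share of changed genes can be read from these counts. For scale, the whole table holds 398 genes, noncoding genes and pseudogenes among them, beside 21877 annotated genes with a coding transcript. No surplus or lack of any list is read from the counts per list below.

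Beside *Rab6b* and *Rab12*, 0 of the remaining 67 annotated Rab GTPases were in the table. Of their regulators and effectors, 2 of 83 were in the table, both lower in QKI-cKO. *Bicd2*, an adaptor that links dynein to vesicles carrying Rab6, was at 15.1 FPKM in QKI-cKO and 20.6 FPKM in QKI-ctrl. *Tbc1d5*, a GTPase-activating protein for Rab7 that works with retromer, was at 6.71 FPKM in QKI-cKO and 9.15 FPKM in QKI-ctrl. The 4 genes of the table on these 2 lists were thus lower in QKI-cKO, beside 42.7% of the table, by log2 ratios from -2.92 to -0.45. *Rin3*, a Rab5 exchange factor that is not on the lists and was named after its values were seen, had the opposite sign, at 16.8 FPKM in QKI-cKO and 11.3 FPKM in QKI-ctrl (log2 ratio 0.57).

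Of the motors, *Kif21a* and *Ktn1* were 2 of 45 genes on the kinesin list, and *Dynlt3*, a dynein light chain, was the 1 of 28 dynein and dynactin genes in the table. *Dynlt3* was at 19.2 FPKM in QKI-cKO and 25.0 FPKM in QKI-ctrl, a log2 ratio of -0.38 close to that of *Ktn1*. Among tubulins and microtubule-associated proteins, 3 of 62 were in the table, all 3 higher in QKI-cKO, beside 57.3% of the whole table. This list too was written with the table already known, and it counts *Fsd1l*, which is described above only as related to a microtubule-associated protein. Beside *Fsd1l* these were *Tubb2b*, a beta-tubulin, at 17.5 FPKM in QKI-cKO and 13.5 FPKM in QKI-ctrl, and *Clip2*, which binds growing microtubule ends, at 8.93 FPKM in QKI-cKO and 7.15 FPKM in QKI-ctrl. Their log2 ratios of 0.37 and 0.32 were far smaller than that of *Fsd1l*.

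The membrane fusion list had 4 of 71 genes in the table, 3 of them lower in QKI-cKO, beside 42.7% of the whole table. *Snap23*, a SNARE of the plasma membrane in many cell types, was at 6.52 FPKM in QKI-cKO and 12.7 FPKM in QKI-ctrl, a log2 ratio of -0.96 close to that of *Rab12*. *Snap47*, a further member of that family, was at 17.0 FPKM in QKI-cKO and 25.7 FPKM in QKI-ctrl. *Syt13*, an atypical synaptotagmin, was at 6.86 FPKM in QKI-cKO and 9.55 FPKM in QKI-ctrl. The gene of this list with the opposite sign was *Stxbp5*, or tomosyn, which holds SNAREs back from forming fusion complexes. *Stxbp5* was at 13.8 FPKM in QKI-cKO and 8.78 FPKM in QKI-ctrl, a log2 ratio of 0.65. Of 85 coat and adaptor genes only *Copz2*, a subunit of the COPI coat, was in the table, at 11.0 FPKM in QKI-cKO and 7.98 FPKM in QKI-ctrl. Arf GTPases and their partners (36 genes) and the exocyst and other tethers (55 genes) had 0 genes in the table.

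**Figure D4:**
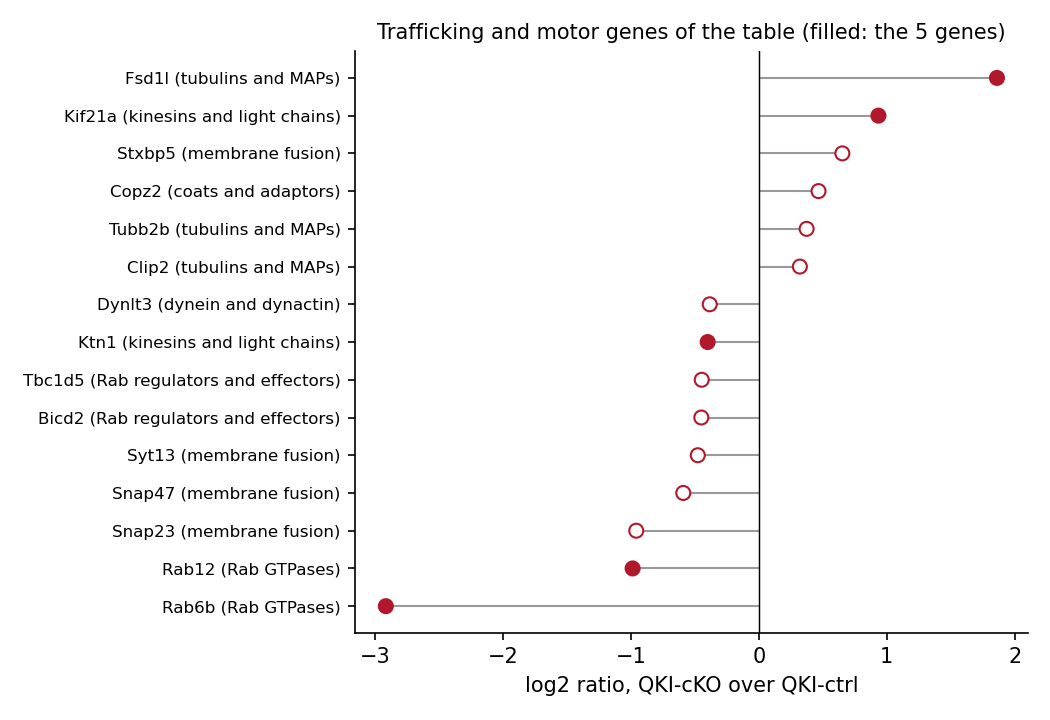
Points give the log2 ratio of QKI-cKO over QKI-ctrl for the 15 trafficking and motor genes of the table, ordered from highest to lowest, with the list of each gene in brackets and the 5 genes *Rab6b*, *Rab12*, *Ktn1*, *Kif21a* and *Fsd1l* filled. The 2 Rab GTPases stand at the lower end, *Fsd1l* and *Kif21a* at the upper end, and the other 10 genes lie between -0.96 and 0.65.

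The genes of the table nearest to each of the 5 in log2 ratio were taken over the 2 pooled values, among genes with a known name that reached 1 FPKM in QKI-cKO or QKI-ctrl. This measure compares only the size of the difference. For *Rab6b* they were the muscle genes *Myl1* (-2.93) and *Mybph* (-3.27). For *Rab12* they were *Sp7* (-0.96) and the pseudogene *Rpl5-ps2* (-0.96), and for *Ktn1* they were *Cadm4* (-0.40) and *Hmox1* (-0.40). *Kif21a* lay closest to *Adgra1* (0.94) and *Cdkn1c* (0.93). For *Fsd1l* they were *Bc1* (1.58) and *Tkt* (1.51), at distances of 0.29 and 0.35 on the log2 scale. Genes below 1 FPKM in both groups could lie nearer, such as *BC030343* (1.89) to *Fsd1l* and *Casq2* (-2.92) to *Rab6b*.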

How the data were processed

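Reads trimmed in Trimmomatic were aligned by the authors to mm10/GRCm38 with STAR and quantified with the Cufflinks suite. The deposited FPKM values are 1 pooled value per group, after scaling of the libraries by the authors through geometric means of their fragment counts, and the table holds only genes that the authors marked as significant. Its columns of fold changes, test statistics, p-values and q-values were not used. The column names do not give the genotype, and the first value was taken as QKI-ctrl because the contractile genes described by the study as lower in QKI-cKO are lower in the second. There were 0 unused columns of single samples. Ratios were computed from the 2 values without a pseudocount, and no test was run.

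Positions and exons came from GENCODE vM21 on GRCm38, in which all 5 gene IDs and loci matched the table. From the study's list of significant skipped exon events only exon positions were read, and none of its measurements. The first stop codon was searched in the longest complete coding transcript that holds the exon (for *Rab12*, that joins its neighbours) after the exon was added or removed. Functions were tested on simulated data. Values are given for the 5 members, *Qk*, and all genes of 9 family lists and cell type markers that are in the table. For each member they are also given for the 2 genes nearest in log2 ratio that reached 1 FPKM in either group and have no predicted name. *Necap2*, *Sv2a*, *Rin3*, *BC030343* and *Casq2* fall outside this rule and were named after their values were seen. Members and lists were chosen with earlier results of these data known. Alternatives were pseudocounts of 0.1 and 1 FPKM, a minimum level, and lists without the 5 genes. Python 3.11.15, pandas 2.3.3, numpy 2.4.6 and matplotlib 3.10.9 were used.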

Additional observations from a re-analysis of the deposited data

How the results depend on the processing

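With a pseudocount of 0.1 FPKM the log2 ratios were -2.45 for *Rab6b*, -0.98 for *Rab12*, -0.40 for *Ktn1*, 0.91 for *Kif21a* and 1.75 for *Fsd1l*. With 1 FPKM they were -1.11, -0.94, -0.39, 0.74 and 1.17 in the same order of genes, so that every direction was kept, the same 2 genes stayed past 2-fold and *Fsd1l* came before *Rab6b* in size. A pseudocount pulls the ratio of a low gene towards 0 by construction. A minimum of 1 FPKM in the higher group left 6 higher and 9 lower genes on the trafficking and motor lists. All 15 genes already reach this minimum, so the unchanged counts say nothing on how they depend on it. Windows of the last 500 and 2000 nucleotides, chosen after the data were seen, gave 1 and 3 of the 5 genes with a QRE core. Both planned searches of intron windows were not run, since no genome sequence was used here. No paired analysis was possible because the table holds 1 value per group, and for the same reason no replicate could be left out.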
